A study of Homo sapiens with 24 samples.

Results

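The report covers the imprinted box C/D small nucleolar RNAs (snoRNAs) of human chromosomes 14 and 15: the SNORD113 and SNORD114 families in the MEG8 host gene, and the SNORD116 and SNORD115 families in the SNHG14 host gene. Members were the rows of the small RNA table that were not long non-coding RNA (lncRNA) intervals and whose first name began with 1 of these 4 family names. There were 134 such rows of 175946 in the table, namely 9 of SNORD113, 31 of SNORD114, 49 of SNORD115 and 45 of SNORD116, and the same rows were taken from the ATAC-seq table. All 134 rows overlapped a RefSeq gene of the families (GRCh38.p14), and all 118 RefSeq genes of the families had a row. SNORD116 loci often had 2 overlapping rows, so the 134 rows stand for 118 distinct loci (9, 31, 48 and 30). Loci are named below by the RefSeq gene they overlap, since 11 rows carried another family member's symbol.

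The cells were HEK293, an established human embryonic kidney line with a wild-type genotype label, in which eGFP (the control, called GFP), lamin A (LMNA), lamin B1 (LMNB1) or lamin B2 (LMNB2) was overexpressed. Lamins are the filament proteins under the inner nuclear membrane. Each of the 4 groups had 3 small RNA libraries and 3 ATAC-seq libraries, 24 in all, the small RNA from RNA enriched for small species and the ATAC-seq from cells collected separately. The labels do not say how long the proteins were expressed, by which vector, or whether replicates were separate cultures, so p-values measure only the spread between these libraries.

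Box C/D snoRNAs are short RNAs, processed from introns, that usually guide ribose methylation of ribosomal RNA. The members described here are orphan snoRNAs with no established ribosomal target, and they lie in tandem arrays in the introns of long host transcripts made from 1 parental chromosome: the maternal one for MEG8 and the paternal one for SNHG14. Loss of the paternal SNORD116 array is central to Prader-Willi syndrome, and SNORD115, abundant in neurons, is known for its complementarity to the serotonin receptor transcript HTR2C.

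Small RNA counts came to between 132.5 and 195.1 M (mega) per library and ATAC-seq window counts to between 156.0 and 290.2 M. The label was checked with microRNAs. MIR17, MIR20A and MIR92A1, microRNAs of proliferating lines, stood at 1.95 to 6.63, 1.26 to 5.10 and 13.4 to 68.1 counts-per-million (CPM) over the 12 libraries. The 12 marker microRNAs of hepatocytes, blood, muscle and neurons reached at most 8 counts (0.0531 CPM, MIR122) in any library, and the 3 neuronal MIR124 intervals at most 1 count. The mitochondrial share of ATAC-seq counts was 39.9 to 47.5% in GFP, 39.4 to 44.1% in LMNA, 32.8 to 34.1% in LMNB1 and 24.5 to 30.7% in LMNB2. Leaving out the mitochondrial chromosome made no member a call in the ATAC-seq window tests below. In the tests of 50 kb flanks it changed no value, so it was no check there.

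The snoRNA arrays were almost silent in these small RNA libraries, while the other box C/D snoRNAs were abundant. Of the 134 member rows, 60 had at least 1 read in the 12 libraries and 74 had none. The other 249 box C/D rows had reads in 238 cases (95.6%), and 191 of them had 100 reads or more, a level no member reached. The median box C/D row outside the families had 17430 reads over the 12 libraries and the median member row 0. Summed over rows, the other box C/D snoRNAs held 44238.8 CPM and the members 0.294 CPM. In bulk libraries fewer cells making an RNA and less RNA per cell cannot be told apart. A row without a read among 1872602847 summed counts allows a level of up to 0.0016 CPM (3 counts), a limit that covers counting error only.

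The families differed in how many of their loci were seen. Reads fell on 24 of 30 SNORD116 loci, 16 of 31 SNORD114 loci, 3 of 9 SNORD113 loci and 3 of 48 SNORD115 loci. Counted once per locus, these came to 206, 166, 5 and 3 reads. Of the 46 loci with reads, 12 had 10 or more, and 4 had a read in each of the 12 libraries (SNORD114-3, SNORD116-8, SNORD116-25 and SNORD116-26). Within both arrays with reads, a few loci carried much of the signal: 2 loci held at least 50% of SNORD114 reads and 4 loci at least 50% of SNORD116 reads.

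**Figure D1:**
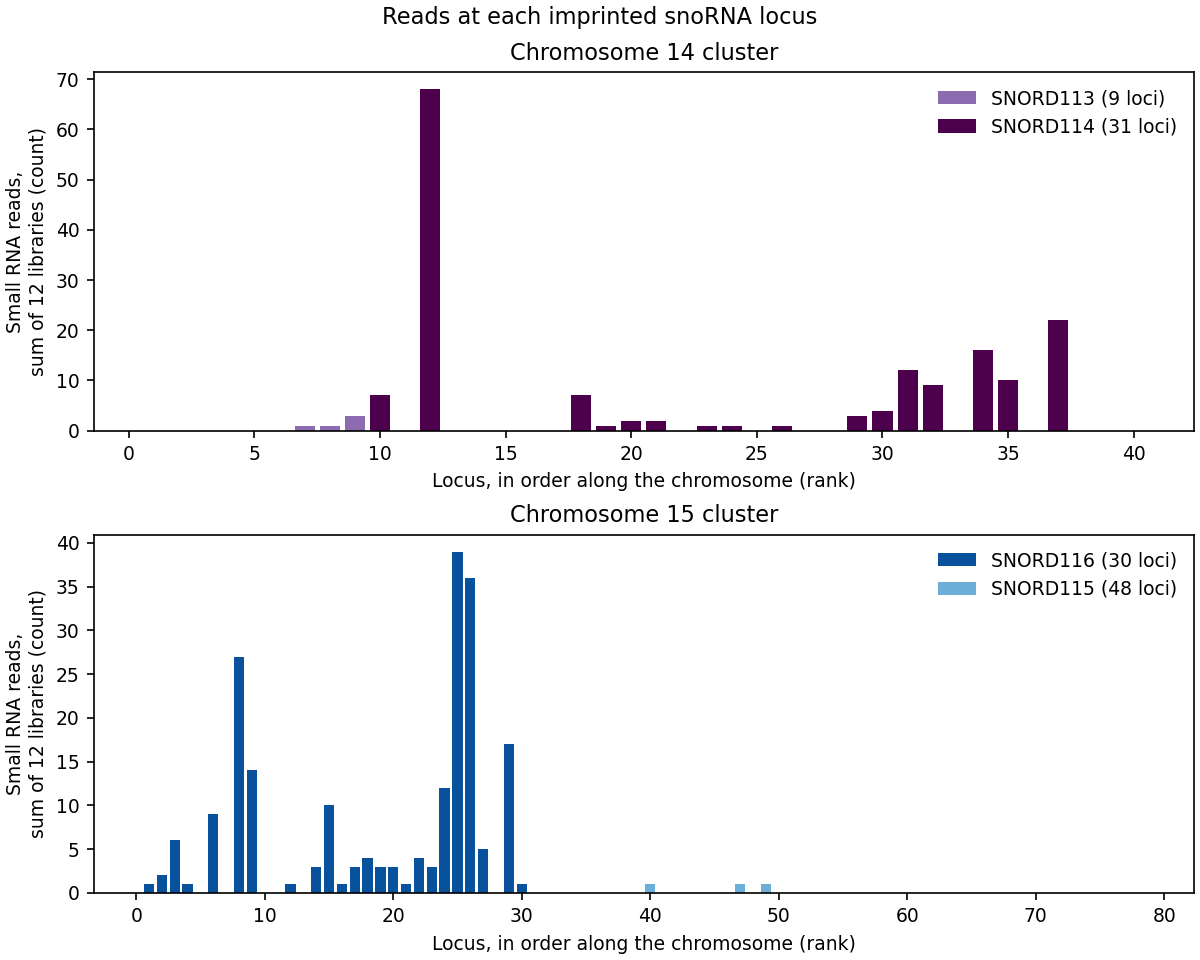
Small RNA reads summed over the 12 libraries (vertical axis, count) for each locus in chromosomal order (horizontal axis, rank), for the chromosome 14 and chromosome 15 clusters, coloured by family. SNORD114-3 (68 reads) stands out on chromosome 14. On chromosome 15, SNORD116-25 (39 reads), SNORD116-26 (36) and SNORD116-8 (27) lead, and 45 of the 48 SNORD115 loci are at 0.

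On chromosome 14, SNORD114-3 (14:100953324-100953448, plus strand, GRCh38 per the submitters' notes) had the most reads, 68 or 41.0% of the family. Its counts were 4, 2 and 7 (GFP), 5, 3 and 9 (LMNA), 4, 8 and 4 (LMNB1) and 9, 10 and 3 (LMNB2). All 3 lamin groups overlapped GFP. The corresponding levels were 0.0295 ± 0.0131 CPM (GFP), 0.0348 ± 0.0163 (LMNA), 0.0321 ± 0.0146 (LMNB1) and 0.0465 ± 0.0224 (LMNB2) (mean ± SD, n = 3). SNORD114-28 followed with 22 reads, at most 5 in a library, and SNORD114-25 with 16, at most 3 in a library. SNORD113, the array next to SNORD114 and upstream of it, had 3 reads at SNORD113-9 and 1 each at SNORD113-7 and SNORD113-8. All 5 SNORD113 reads lay in lamin libraries (1 in LMNA, 2 in LMNB1 and 2 in LMNB2), and at most 1 fell in any library. GFP at 0 allows up to 0.00637 CPM over its 3 libraries, a level that the lamin means of 0.00195 to 0.00414 CPM did not reach.

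On chromosome 15, the leading loci were SNORD116-25 with 39 reads, SNORD116-26 with 36 and SNORD116-8 with 27. SNORD116-25 had 3, 5 and 2 counts (GFP), 6, 4 and 3 (LMNA), 4, 4 and 2 (LMNB1) and 2, 3 and 1 (LMNB2). SNORD116-26 had 1, 2 and 4 counts (GFP), 3, 1 and 1 (LMNA), 4, 3 and 4 (LMNB1) and 5, 3 and 5 (LMNB2). These neighbours in the array were nearly level in total, and at both the counts of each lamin group overlapped those of GFP. The first 15 SNORD116 loci in chromosomal order held 74 reads and the last 15 held 132, and reads were found at 10 and 14 of them. SNORD116-25 and SNORD116-26 both lie in the last 15. Spearman's rho between locus order and reads was 0.28 over the 30 loci. The near-identical copies within a family share sequence, and how reads that match several copies were counted is not given in the sources used here, so the split between copies is uncertain.

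SNORD115 gave 3 reads in all. They lay at SNORD115-10, SNORD115-17 and SNORD115-19, 1 read each, with 2 in LMNB2 replicate 1 and 1 in LMNB2 replicate 3. The 9 GFP, LMNA and LMNB1 libraries had none at any of the 48 loci. The lead of SNORD116 over SNORD115 held in 12 of 12 libraries and that of SNORD114 over SNORD113 in 12 of 12.

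The reads were set against those of the host genes to see whether they marked the snoRNAs or the host transcript around them. The longest MEG8 interval (14:100889624-100999138) held 216 reads, and the SNORD114 loci, 3.48% of its length, held 76.9% of them. SNORD114 loci carried 3.63 reads per kb per library and the rest of MEG8 outside both arrays 0.0359, a ratio of 101. SNORD114 was denser than the rest in 12 of 12 libraries, with ratios from 49.4 (LMNB1 replicate 3) to 302 (LMNA replicate 1). In those libraries the members held 66.7% of 15 and 91.7% of 12 MEG8 counts, with 95% Clopper-Pearson intervals of 38.4 to 88.2% and 61.5 to 99.8%. SNORD113 loci carried 0.374 reads per kb per library, 10.4 times the rest of MEG8, a ratio that rests on 5 reads in 5 of the 12 libraries.

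SNHG14 (15:24823583-25419486) held 1613 reads, and the SNORD116 loci, 0.724% of its length, held 12.8% of them. SNORD116 loci carried 3.98 reads per kb per library and the rest of SNHG14 0.200, a ratio of 19.9 that ranged from 14.7 to 24.5 over the libraries and was above 1 in 12 of 12. Much of the host's signal lay past the arrays. An SNHG14 interval that begins at SNORD115-48 (15:25269662-25419487) held 1012 of the 1613 reads (62.7%). RefSeq places the protein-coding gene UBE3A there, at 15:25333728-25439056, and the snoRNA SNORD109B, at 15:25278343-25278409. Without strand, reads of UBE3A and of SNHG14 cannot be told apart. Before that interval the host outside the arrays carried 0.0750 reads per kb per library, and the SNORD116 ratio was 53.0 (31.4 to 96.9 over the libraries). That background is not host transcript alone, since it includes other snoRNAs of the domain, such as SNORD64. SNORD115 loci carried 0.0399 reads per kb per library, 0.532 times that background. No read density above that background was detectable for SNORD115 at this depth.

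**Figure D2:**
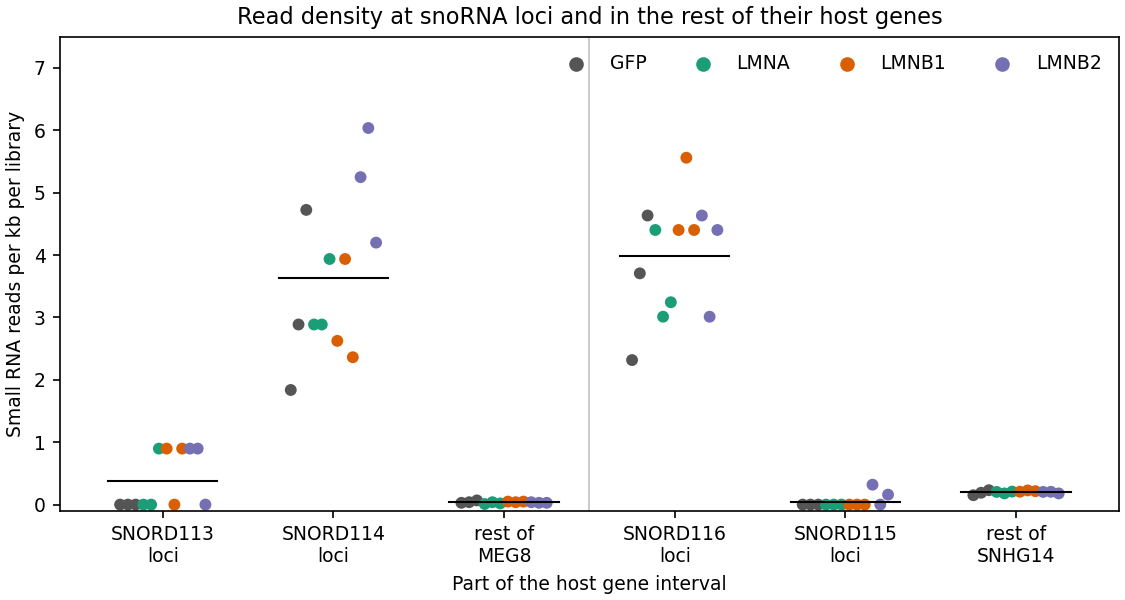
Small RNA reads per kb per library (vertical axis) in each of the 12 libraries (points, coloured by group) at the snoRNA loci of each family and in the rest of the MEG8 and SNHG14 intervals. SNORD114 and SNORD116 lie above the rest of their host in 12 of 12 libraries (3.63 against 0.0359 and 3.98 against 0.200 over all libraries), while SNORD113, with at most 1 read per library, does so in 5 of 12 and SNORD115 in 1 of 12.

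The other non-coding genes of these domains ranged from no reads to 1613 reads at SNHG14 over the 12 libraries. The median of all features was 12 reads. Of 51 genes listed for the chromosome 14 domain, 14 had reads, and of its 47 microRNAs 11 had reads, with at most 6 at any (MIR543). The leading gene was MEG8. MEG3, the maternally expressed lncRNA at the head of the domain, had 15 reads over the intervals that span the RefSeq gene, such as 14:100826082-100861048. A row named MEG3 with 38 reads (14:100779385-100829210) lies mostly before the gene's start at 100826108. Of 15 genes listed for the chromosome 15 domain, 14 were in the table and 10 had reads, led by SNHG14 and PWAR5 with 37 reads. SNORD64, another snoRNA inside the PWAR5 interval, had 36 reads, so nearly all PWAR5 reads lay on a snoRNA there as well. Among the other listed snoRNAs of the domain, SNORD107, SNORD108 and SNORD109A had 5, 0 and 3 reads. The reads of SNORD109B, also listed, are not given here.

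No member met the count filter for the small RNA tests, so the question whether a lamin changed these snoRNAs could be put only to the unfiltered table and to the family sums. With the filter, edgeR's quasi-likelihood test ran on 33893 features, 0 of them members, and called 0, 0.0384 and 2.66% of features in LMNA, LMNB1 and LMNB2 against GFP (adjusted p under 0.05). DESeq2 with the same filter tested no member either. With no filter, the 60 member rows with reads were tested and 0 were called in any of the 3 comparisons, against 0.0737, 0.0843 and 1.16% of all features. At an unadjusted p under 0.05 there was 1 member row in each comparison, of 60. Over all features there were 5494 in LMNA, 6108 in LMNB1 and 12611 in LMNB2, of 150622 tested. These were SNORD114-23 in LMNA (0, 0 and 0 counts in GFP against 2, 1 and 2), SNORD114-22 in LMNB1 (0, 3 and 4 against 0, 1 and 0), and SNORD114-1 in LMNB2 (0, 0 and 0 against 2, 1 and 2). Their edgeR adjusted p-values were 0.900, 0.866 and 0.515, the lowest among members in each comparison. With counts this small, a change was not detectable at the level of a locus.

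SNORD114, summed over the family, had its highest level in LMNB2. The counts were 7, 11 and 18 (GFP), 11, 11 and 15 (LMNA), 10, 15 and 9 (LMNB1) and 20, 23 and 16 (LMNB2). The levels were 0.0808 ± 0.0206 CPM (GFP), 0.0774 ± 0.00972 (LMNA), 0.0681 ± 0.0209 (LMNB1) and 0.127 ± 0.0177 (LMNB2) (mean ± SD, n = 3). LMNB2 libraries (0.114 to 0.147 CPM) lay above the GFP libraries (0.0601 to 0.101 CPM), as did 12.1% of all tested features in that comparison, while LMNA and LMNB1 overlapped GFP. Scaled by total counts alone, LMNB2 spanned 0.121 to 0.161 CPM and overlapped GFP at 0.0379 to 0.133 CPM. No p-value is given for the sum, since the members were chosen with results known. The host interval MEG8, which holds these reads, was tested. It had 10, 15 and 25 counts in GFP and 25, 27 and 19 in LMNB2, a log2 fold change of 0.41 ± 0.26 (SE) with an adjusted p of 0.393 (edgeR). Against GFP it stood at -0.28 ± 0.28 in LMNA and -0.20 ± 0.27 in LMNB1 (edgeR adjusted p of 0.947 and 0.925).

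SNORD116, summed over the family, overlapped GFP in all 3 lamin groups. The counts were 10, 16 and 20 (GFP), 19, 13 and 14 (LMNA), 19, 24 and 19 (LMNB1) and 20, 13 and 19 (LMNB2). The levels were 0.105 ± 0.0171 CPM (GFP), 0.0966 ± 0.0191 (LMNA), 0.124 ± 0.0200 (LMNB1) and 0.113 ± 0.0268 (LMNB2) (n = 3). SNHG14 differed from GFP by log2 fold changes of -0.10 ± 0.14 in LMNA, -0.00 ± 0.14 in LMNB1 and -0.03 ± 0.14 in LMNB2, with edgeR adjusted p-values of 0.975, 1.00 and 0.922. Of the 2 lists of domain genes, 10 intervals could be tested, 4 of MEG8 and 6 of SNHG14. Of these, 0 were called and 0 had an unadjusted p under 0.05 in any of the 3 comparisons, by edgeR or by DESeq2. The tested intervals of each gene overlap its longest interval and share reads with it.

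**Figure D3:**
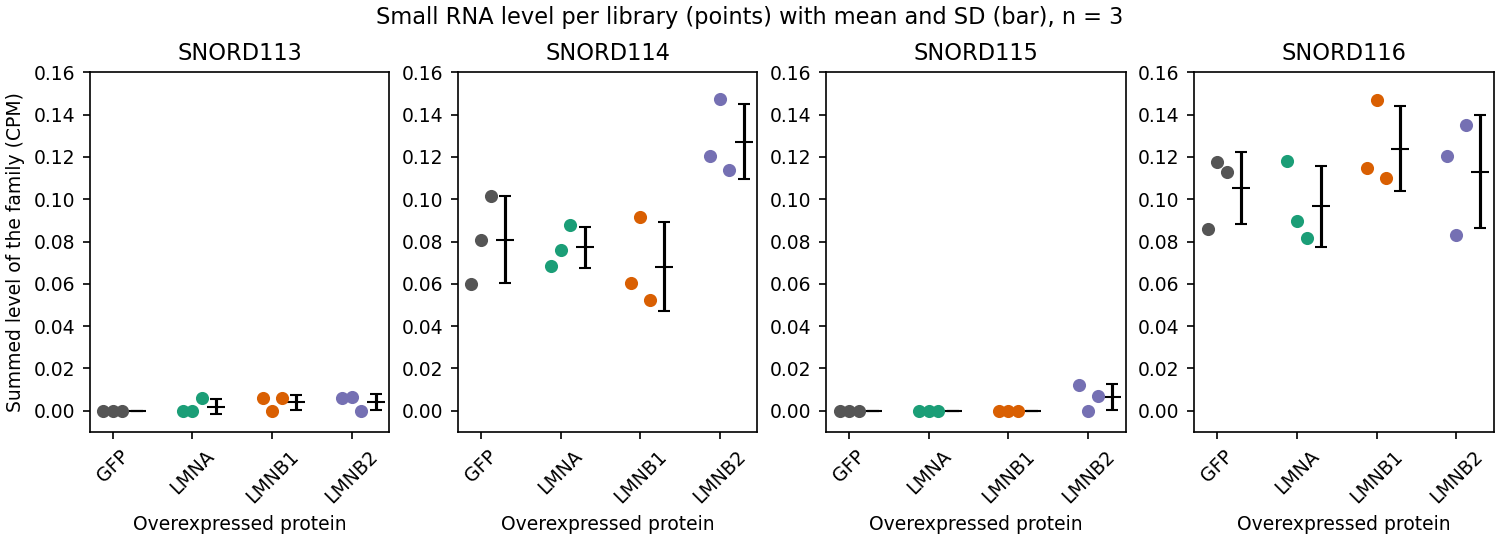
Summed small RNA level of each family (vertical axis, CPM) in each library (points) by overexpressed protein (horizontal axis), with the mean and SD of the 3 libraries (bars). SNORD114 in LMNB2 (0.114 to 0.147 CPM) lies above GFP (0.0601 to 0.101 CPM), the SNORD116 groups overlap, and SNORD113 and SNORD115 stand at or near 0.

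Chromatin accessibility at the arrays lay below that of the other box C/D snoRNAs, and its order among families differed from that of the reads. ATAC-seq, in which a transposase cuts open DNA, was counted over a window reaching 125 bp beyond each feature. Per kb of window, the median level over the 12 libraries was 0.0189 CPM for SNORD113, 0.0289 for SNORD114, 0.0445 for SNORD116 and 0.0752 for SNORD115. The median was 0.177 CPM per kb for the other box C/D windows, 0.0945 for all windows and 0.0798 for windows of features that are not lncRNA, which SNORD115 approached. Of the 118 loci, 1 lay above the box C/D median and 5 above the median of all windows, all of them in SNORD115. SNORD115, nearly without reads, had the highest median of the 4 families. By the level summed over the windows of a family, SNORD115 was above SNORD116 in 12 of 12 libraries. By the same sum, SNORD116 was above SNORD114 in 12 of 12 and SNORD114 above SNORD113 in 9 of 12. Across loci within a family, Spearman's rho between ATAC level and reads was 0.40 over 31 SNORD114 loci and 0.10 over 30 SNORD116 loci, with libraries and depth shared by all loci.

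**Figure D4:**
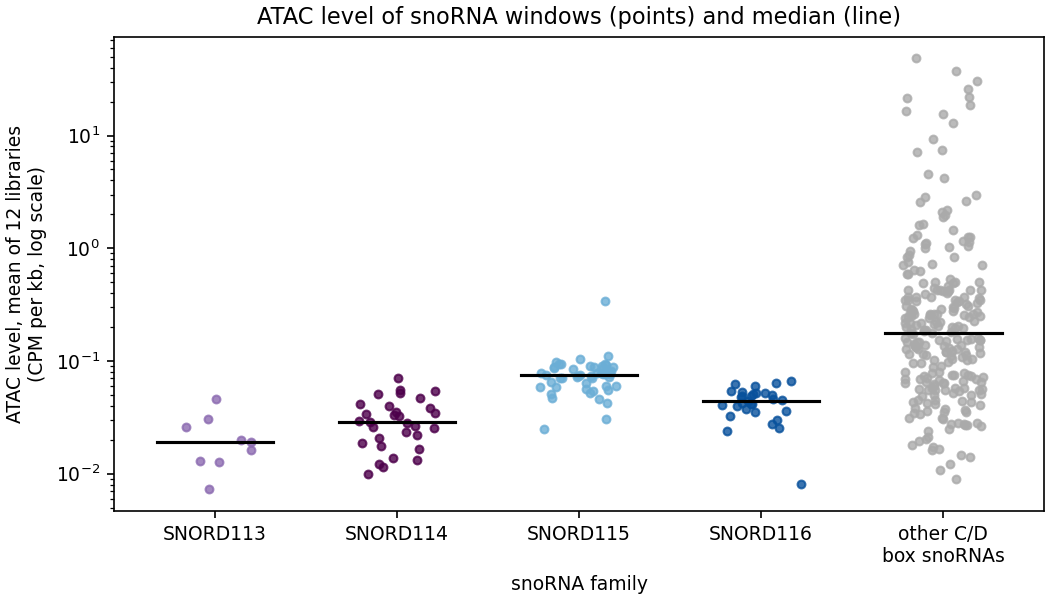
ATAC-seq level (vertical axis, CPM per kb, log scale, mean of 12 libraries) of each locus of the 4 families and of the other box C/D snoRNA windows (points). The family medians (0.0189 to 0.0752 CPM per kb) lie below the median of the other box C/D windows (0.177), and SNORD115-47 at 0.337 is the only member above it.

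Counts per window were small, with a median locus at 1.67 counts per library for SNORD113, 2.67 for SNORD114, 4.33 for SNORD116 and 6.67 for SNORD115. The highest window of each family was SNORD113-1 (0.0458 CPM per kb), SNORD114-22 (0.0711), SNORD116-15 (0.0670) and SNORD115-47 (0.337). SNORD115-47 (window 15:25268316-25268701) had 26, 8 and 22 counts (GFP), 16, 33 and 35 (LMNA), 54, 53 and 20 (LMNB1) and 40, 32 and 31 (LMNB2). Its signal was local, since the 500 bp flanks on its 2 sides held 0.0238 and 0.0247 CPM per kb. It had no small RNA read in the 12 libraries. Its LMNB2 counts all exceeded the GFP counts, but the LMNB2 libraries were the deeper ones, and scaled to library size each lamin group overlapped GFP. It stood at 0.280 ± 0.152 CPM per kb (GFP), 0.338 ± 0.140 (LMNA), 0.404 ± 0.179 (LMNB1) and 0.327 ± 0.0403 (LMNB2) (n = 3). The log2 fold changes of 0.26, 0.54 and 0.23 had edgeR adjusted p-values of 0.994, 0.978 and 0.968.

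Around the loci, the level changed along the domain. The 5 kb flanks had medians of 0.0167 CPM per kb at SNORD113, 0.0256 at SNORD114, 0.0353 at SNORD116 and 0.0622 at SNORD115, against 0.0781 for the same flanks of all features. Along the SNORD116 array they fell from a median of 0.0489 CPM per kb at the first 5 loci to 0.0182 at the last 5, and the rank correlation of the flank level with locus order was -0.93 over 30 loci, whose flanks overlap. The snoRNA windows themselves went from 0.0463 in the first 15 loci to 0.0443 in the last 15, and the ratio of a window to its own 5 kb flanks rose from a median of 1.08 to 1.55. The last 15 loci also held the larger share of SNORD116 reads, but a link between that ratio and the reads was not tested. SNORD115 flanks kept nearly 1 level through most of the array, with medians of 0.0639 and 0.0609 CPM per kb in its first and last 24 loci, and dropped to 0.0325 at the last 5. Along SNORD114 the flanks rose from a median of 0.0184 CPM per kb at the first 5 loci to 0.0296 at the last 5. Their rank correlation with locus order was 0.72 over 31 loci. The windows lay above their own 5 kb flanks at 36 of 48 SNORD115 loci, 22 of 30 SNORD116 loci, 19 of 31 SNORD114 loci and 5 of 9 SNORD113 loci.

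**Figure D5:**
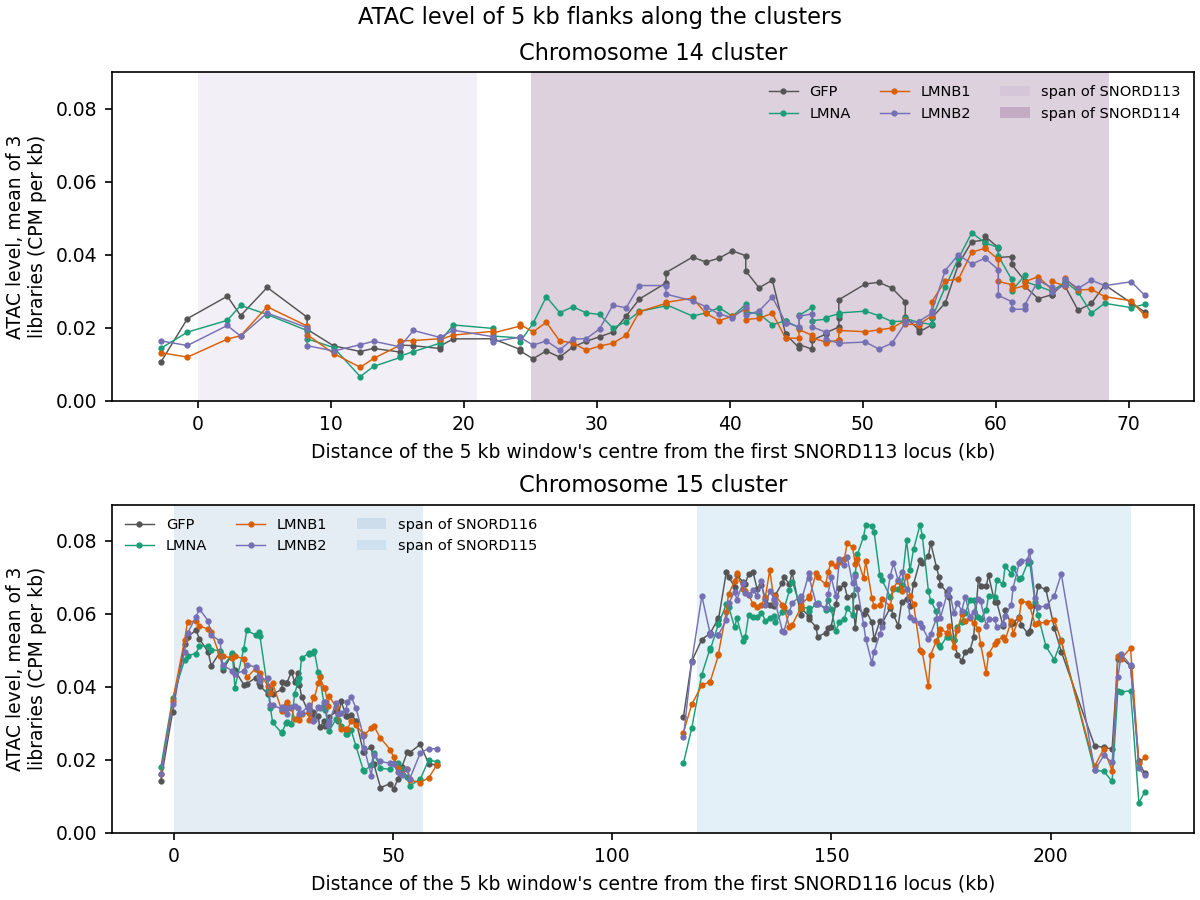
ATAC-seq level of the 5 kb flanks (vertical axis, CPM per kb, mean of 3 libraries per group) against the distance of the flank's centre from the first locus of each cluster (horizontal axis, kb), with the spans of the families shaded. Over the mean of the 12 libraries, the level falls along SNORD116 (medians of 0.0489 at the first 5 loci and 0.0182 at the last 5). Along SNORD114 it rises (0.0184 at the first 5 loci and 0.0296 at the last 5). Over most of SNORD115 it keeps a plateau (0.0639 and 0.0609 in its 2 sets of 24 loci). These medians were not computed per group.

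The promoters at the first RefSeq starts of SNHG14 and MEG3 are shown with the ATAC-seq levels counted nearest to them. Other starts from which the host transcripts may be made were not examined. The sequences are RefSeq's (GRCh38.p14), from 250 bases before to 50 after the annotated start, with CG dinucleotides in capitals. A window of 300 bases over all 35116 RefSeq promoters held a median of 14 CG. SNHG14 had 9, and 43.6% of promoters had as many or fewer. MEG3 had 19, and 58.8% of promoters had as many or fewer.
SNHG14 promoter (chr15:24823358-24823657, plus strand): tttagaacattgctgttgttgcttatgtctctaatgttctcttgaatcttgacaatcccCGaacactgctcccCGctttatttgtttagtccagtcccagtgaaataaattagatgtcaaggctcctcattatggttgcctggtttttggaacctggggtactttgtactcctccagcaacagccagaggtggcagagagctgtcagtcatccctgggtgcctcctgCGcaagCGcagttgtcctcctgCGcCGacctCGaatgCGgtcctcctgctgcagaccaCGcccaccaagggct
MEG3 promoter (chr14:100825858-100826157, plus strand): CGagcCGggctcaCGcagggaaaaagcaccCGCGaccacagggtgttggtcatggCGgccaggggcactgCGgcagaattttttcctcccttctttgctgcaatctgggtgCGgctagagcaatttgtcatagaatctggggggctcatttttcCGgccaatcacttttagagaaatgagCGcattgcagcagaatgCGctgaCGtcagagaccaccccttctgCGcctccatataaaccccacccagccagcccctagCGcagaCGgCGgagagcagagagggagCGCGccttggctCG
The 500 bp flanks nearest to the SNHG14 promoter held 0.0143 and 0.00869 CPM per kb of ATAC-seq, under the median of each of its snoRNA families. These levels rest on means of only 1.83 and 1.08 counts per library. Those nearest to the MEG3 promoter held 0.0623 and 0.0634 CPM per kb, above the medians of SNORD113 and SNORD114, and the window of AL117190.3 over the MEG3 start (14:100826134-100826520) held 0.0973. Methylation was not measured in these libraries.

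With TMM scaling of library sizes, lamin overexpression gave no accessibility call at any member. Only 24 of the 134 member windows met the count filter (23 of SNORD115, 1 of SNORD114, none of SNORD113 or SNORD116). Of these, edgeR called 0 in LMNA, LMNB1 and LMNB2, where 0.000611, 0.00305 and 0.00244% of 163786 windows were called. At an unadjusted p under 0.05 there were 2, 1 and 0 of the 24 windows in edgeR (8.33, 4.17 and 0%), against 5.19, 4.78 and 5.72% of all windows. DESeq2 gave the same numbers of windows and no adjusted p for them. The median log2 fold changes over the 24 were 0.09, -0.05 and -0.03, and those over all windows -0.00 in each comparison. SNORD115-29 had 2, 4 and 2 counts in GFP and 12, 6 and 18 in LMNA, a log2 fold change of 1.76 ± 0.70 (edgeR adjusted p of 0.935). SNORD115-34 had 2, 3 and 2 counts in GFP, 6, 6 and 19 in LMNA and 4, 20 and 12 in LMNB1, with a log2 fold change of 1.71 ± 0.75 in LMNA (edgeR adjusted p of 0.949). Both lay above GFP in all 3 LMNA libraries. Their GFP counts were below the filter's minimum count of 10, so both windows met the filter only through lamin libraries. That choice favours higher values in the lamins at these windows. Groups did not overlap in LMNA at these 2 windows of 24, in LMNB1 at 1 and in LMNB2 at 2, where 9.55, 8.46 and 10.3% of all windows did not overlap.

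Without the filter all 134 windows were tested and 0 were called by edgeR, with lowest adjusted p-values of 0.867, 0.985 and 0.779. At an unadjusted p under 0.05 there were 21 windows in LMNA (15.7%, 17 loci), 11 in LMNB1 (8.21%, 7 loci) and 5 in LMNB2 (3.73%, 3 loci), against 5.13, 4.72 and 5.58% of all windows. Of the 17 loci in LMNA, 7 were higher and 10 lower than in GFP, and the highest mean count among them was 8.08 per library. As an example chosen after its values were seen, SNORD116-26 had no ATAC-seq count in the 3 GFP libraries. Its lamin counts were 3, 1 and 10 (LMNA), 7, 8 and 2 (LMNB1) and 7, 11 and 8 (LMNB2). The GFP libraries (156.0 to 212.2 M) were less deep than those of LMNB1 and LMNB2 (233.3 to 290.2 M). SNORD113-1, the highest window of its family, went the other way. Its GFP counts of 5, 6 and 7 stood against 0, 2 and 2 under LMNA. Its mean level was 0.0929 CPM per kb for GFP, against 0.0166 (LMNA), 0.0409 (LMNB1) and 0.0328 (LMNB2).

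Summed over all windows of a family, the ATAC-seq level of each lamin group overlapped that of GFP for all 4 families. For SNORD115, with the most counts, the levels were 0.0780 ± 0.00829 CPM per kb (GFP), 0.0794 ± 0.0127 (LMNA), 0.0768 ± 0.00818 (LMNB1) and 0.0793 ± 0.00313 (LMNB2) (mean ± SD, n = 3). For SNORD116 they were 0.0413 ± 0.00922, 0.0434 ± 0.00877, 0.0423 ± 0.00696 and 0.0478 ± 0.00626 CPM per kb, in the same order. SNORD114 stood at 0.0298 ± 0.00453 in GFP and between 0.0297 and 0.0352 in the lamins, and SNORD113 at 0.0273 ± 0.00961 in GFP and between 0.0168 and 0.0230.

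The 50 kb flanks hold more counts and put the question to the whole domain. All 268 member flanks were tested among 351053, and edgeR called 0 in LMNA, LMNB1 and LMNB2, where 0.00684, 0.0111 and 0.0254% of all flanks were called. At an unadjusted p under 0.05 there were 0, 3 and 0 member flanks in edgeR (0, 1.12 and 0%), against 6.14, 5.77 and 7.50% of all flanks. DESeq2 called 0 as well and had 2, 8 and 0 at that level (0.746, 2.99 and 0%), against 5.92, 5.55 and 7.16% of all flanks. For LMNA the edgeR log2 fold changes lay between -0.26 and 0.27, for LMNB1 between -0.33 and 0.16, and for LMNB2 between -0.21 and 0.35. Their medians were 0.00, -0.07 and -0.00, and those of all flanks -0.01 in each comparison. Neighbouring flanks overlap and are not independent of each other. With total counts alone as the scaling, 1 member flank was called in LMNA (right of SNORD114-6, edgeR adjusted p of 0.0492), a scaling under which 134724 of the 351053 flanks were called.

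By family, the medians over SNORD114 flanks were -0.11 in LMNA, -0.13 in LMNB1 and -0.14 in LMNB2, and those over SNORD116 flanks 0.04, 0.03 and 0.05. SNORD113 flanks had medians of 0.03, -0.12 and -0.03, and SNORD115 flanks of -0.02, -0.06 and -0.00, in the same order. All 18 SNORD113 flanks were below 0 in LMNB1, and 9 of 18 in each of the other 2 lamins. None of these flanks passed the test. The 3 comparisons share the GFP libraries. Groups did not overlap at 3 member flanks in LMNA, 8 in LMNB1 and 1 in LMNB2 of 268, where 9.87, 7.74 and 11% of all flanks did not overlap. The 3 in LMNA were the left flanks of SNORD113-1, SNORD113-2 and SNORD113-3, over the stretch before the array, with log2 fold changes of 0.17, 0.14 and 0.13. The 8 in LMNB1 were the right flank of SNORD116-28 and the left flanks of SNORD115-1 to SNORD115-5, SNORD115-8 and SNORD115-9, which share the gap between the 2 arrays. At the left flank of SNORD115-6, in the same stretch, the groups overlapped. At the left flank of SNORD115-4 (15:25126332-25176331), which had the lowest p of them, the LMNB1 libraries stood at 65.0, 86.4 and 87.0% of the GFP mean and the GFP libraries at 98.3, 98.1 and 103.6%. Its log2 fold change was -0.33 ± 0.15 with an edgeR adjusted p of 0.840.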

How the data were processed

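Raw counts were deposited by the authors for both assays, in 1 table each, with 3 libraries for each of 4 groups. The values were whole numbers whose totals differed between libraries. The build was GRCh38, per the submitters' processing notes. The aligner, the counting tool, its use of strand and its handling of reads that match several copies are not given in the sources used here, and each could move the values of these repeated genes. Of ATAC-seq counts between 1 and 10, 75.1% were even (39.7% for small RNA). Each ATAC-seq feature window extends 125 bp past the feature, and flanks of 500, 5000 and 50000 bp begin 350 bp outside it. Groups and columns were matched by the titles and descriptions. No 2 libraries of a group were identical or agreed within counting noise.

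Levels are CPM on library sizes scaled by TMM, per kb for ATAC-seq. The 12 libraries of each assay entered 1 fit, with edgeR 4.0.16 under R 4.3.3 (filterByExpr with a minimum count of 10, robust quasi-likelihood test, Benjamini-Hochberg adjustment over all tested features), and calls have an adjusted p under 0.05. An SE is the size of the log2 fold change divided by the square root of the F statistic. The scripts were tested on simulated data. Overlapping rows of a locus were merged, keeping the widest row. The host comparison uses the longest host interval, and its shares have 95% Clopper-Pearson intervals, which cover counting error only. Alternatives were other scalings, other count filters, DESeq2 1.42.0, only the libraries compared, a replicate block, and leaving out each library. Names were the 3 loci with the highest CPM in each family, the highest ATAC-seq window in each family, any called member, and the 2 leading genes of each domain list; others were chosen after their values were seen. Members and lists were chosen with earlier results of these data known. The snoRNA sequences are not shown.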

Additional observations from a re-analysis of the deposited data

How the results depend on the processing

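The count of members with reads depended on what counts as seen: 60 with at least 1 read, 18 with 10 or more reads over the 12 libraries, 6 with a read in every library, and 55 to 60 when any 1 library was left out. With overlapping rows counted once, an alternative chosen after seeing the data, 46 loci had reads. Member calls stayed at 0 in the small RNA, ATAC-seq window and 50 kb flank comparisons under the alternatives run, with 1 exception, but small RNA members were tested only without the count filter. For ATAC-seq windows DESeq2 gave members no adjusted p, so it could make no call. A filter at a mean of 10 counts left 3 member windows to test. Fits on only the libraries compared left 2 in LMNA, 4 in LMNB1 and 7 in LMNB2. Scaled by total counts only, 1 flank was called in LMNA, the right flank of SNORD114-6 (14:100957738-101007737), with a log2 fold change of -0.40 ± 0.16 and an edgeR adjusted p of 0.0492. Under that scaling 134724 of 351053 flanks were called and the median of all flanks moved to -0.16, while under TMM the same flank stood at -0.25 ± 0.14 (adjusted p of 0.862). Over the alternatives, the lowest adjusted p of any member was 0.515 in small RNA, 0.131 in ATAC-seq windows and, in the other 2 flank comparisons, 0.0885. The replicate block gave 0 member calls in the 6 ATAC-seq comparisons; in small RNA no member was tested under it. Libraries that share a replicate number correlated above 0.1 in 2 of 18 pairs for small RNA, 2 of 18 for ATAC-seq windows and 8 of 18 for flanks. Libraries with different numbers did so in 0, 0 and 10 of 36 pairs. Mean correlations were 0.040, 0.017 and 0.063 for the same number, against -0.020, -0.008 and -0.032 for different numbers. Some pairing is thus possible, and the main fits, which have no replicate block, do not account for it. The signs of the medians over the 268 member flanks rested on single libraries. The LMNA median (0.00) went to 0.14 without GFP replicate 3 and to -0.10 without LMNA replicate 3. The LMNB1 median (-0.07) went to 0.05 without GFP replicate 3 and to -0.11 without LMNB1 replicate 3. The LMNB2 median (-0.00) went to 0.11 without GFP replicate 3 and to -0.07 without GFP replicate 2. Low counts limit the tests: no small RNA member and 24 of 134 ATAC-seq windows met the count filter.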
